A study of Mus musculus with 9 samples.

Results

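The genes described here are the enzymes and readers that write, remove, read or move histone and DNA marks in the mouse liver, together with the sirtuins, whose targets lie inside and outside the nucleus. They were taken from the deposited expression table by symbol, as genes named Kdm, Kmt, Hdac, Sirt, Setd, Smarc, Chd, Brd, Arid, Kat, Dnmt, Tet or Ing with a mean of at least 1 TPM (transcript abundance corrected for transcript length and library total) over the 9 libraries. The symbol matched 59 genes and 53 of them passed the level, out of 4665 genes that passed the same level and 5608 genes listed. All mice were wild type (C57BL/6 J), and the 3 groups of 3 livers differed in diet. FED mice had free access to standard diet (replicates 1, 2 and 3), IF mice were intermittently fasted, with food withheld for 24 h 2 times a week (replicates 1, 2 and 3), and FMD mice received a fasting-mimicking diet for 3 days (replicates 1, 2 and 4). Bulk RNA of whole liver was sequenced, so fewer cells of a type and less RNA per cell cannot be told apart.

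Histone-modifying enzymes draw their substrates from metabolism. Acetyltransferases use acetyl-CoA, methyltransferases use S-adenosylmethionine (SAM), the JmjC demethylases and the Tet enzymes use 2-oxoglutarate, and sirtuins consume NAD+, while the classical deacetylases (HDACs) need only zinc. Remodellers of the CHD and SWI/SNF families spend ATP to move nucleosomes. In liver the sirtuins are best known from the fasting response, where Sirt1 deacetylates transcription regulators such as PGC-1alpha and FOXO factors and Sirt3 deacetylates enzymes of the mitochondrial matrix.

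The comparisons asked how the liver transcriptome under each diet differed from that of fed mice, and how the diets differed from each other. The table as a whole stood higher under both diets. The median log2 fold change of the 4665 genes, on the log2(TPM + 1) scale used throughout, was 0.24 in IF against FED, 0.48 in FMD against FED and 0.24 in FMD against IF. The listed genes together held 26.3% to 29.3% of the total TPM of a library in FED, 32.9% to 34.9% in IF and 34.9% to 43.0% in FMD, with FMD replicate 1 at the top. Member values are therefore also given after scaling, in which each library was divided by the median ratio of its genes to the geometric mean library, and the all-gene medians then lay between -0.0017 and 0.0056. A gene was called at a limma adjusted p (Benjamini-Hochberg over all genes tested) under 0.05 together with a change of over 1.5-fold, the limits the study used.

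Few cell type markers were listed. Of the hepatocyte markers, Ass1 and Cyp2f2 were listed (2 of 18). Their summed level was 4463 to 5387 TPM in FED, 3505 to 5829 in IF and 3478 to 6095 in FMD. Within that sum Cyp2f2 was called lower in IF (-0.66) and FMD (-0.73), also after scaling (-0.94 and -1.29). Ass1 was called in neither, at 0.21 and 0.13, or -0.07 and -0.42 after scaling. The stellate cell markers Dcn, Col1a1 and Pdgfrb (3 of 11) summed to 66.6 to 93.8 TPM in FED, 122 to 160 in IF and 107 to 217 in FMD. That sum was mostly Dcn, with means of 77.5, 141 and 150 TPM. Dcn was called higher in IF (0.86) and FMD (0.90), but not after scaling (0.58 and 0.35). Col1a1 (-0.13 in IF, -0.22 in FMD) and Pdgfrb (0.15 and -0.05) were not called. The macrophage marker Cd68 (1 of 13 listed) stood at 6.35 to 10.4 TPM in FED and 3.14 to 5.99 in IF. In FMD replicates 1, 2 and 4 it was 64.0, 12.2 and 5.75, so that the highest value lay in FMD replicate 1. The endothelial marker Oit3 (1 of 11) was 6.58 to 9.28 TPM in FED, 6.35 to 8.02 in IF and 8.85 to 17.2 in FMD. Krt19 of cholangiocytes (1 of 7) was at most 4.07 TPM and Top2a of cycling cells (1 of 8) at most 0.32, and none of the lymphocyte, neutrophil or erythroid markers was listed. The part of these markers and of FMD replicate 1 in the FMD results was not tested. Where leaving out FMD replicate 1 changed a call in FMD against FED or moved a log2 fold change by over 1.5 times, the value without it is given.

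Most members were expressed at a low level. Their median was 4.75 TPM against 11.5 for all genes tested, and 26.6% of all genes lay below the member median. The highest members were Sirt3 with a mean of 102 TPM, Setd3 with 49.3, Sirt2 with 39.8, Smarcd2 with 28.9 and Sirt7 with 27.6, so that 3 of the top 5 were sirtuins and Setd3 is an actin histidine methyltransferase. The lowest were Tet2 with 1.16 TPM, Kmt2a with 1.26, Setd7 with 1.55, Chd7 with 1.56 and Kdm8 with 1.61. No member lay within 0.1 TPM above the threshold. Just under it was Smarcd3, a SWI/SNF subunit, with 0.957 TPM. The other matched genes below 1 TPM were Dnmt3b with 0.782, Arid3a with 0.57, the noncoding Brd3os with 0.314, Tet1 with 0.0111 and Chd5 with 0.00778. Replicates varied least in IF, where the median coefficient of variation of the members was 7.67%, against 8.05% in FED and 15.6% in FMD.

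In IF against FED, 3 of the 53 members were called and all 3 were higher (5.66%), against 10.3% of all genes called higher and 1.59% called lower. They were Chd4, the ATPase of the NuRD complex, Sirt3, and Ing2, a reader of methylated histone H3 lysine 4. The groups did not overlap in 36 members (67.9%), against 60.6% of all genes. The median log2 fold change of the members was 0.27, and 32 of 53 lay above the all-gene median. Fold changes ran from -0.15 in Kmt5c, a methyltransferase of histone H4 lysine 20, to 0.68 in Chd4.

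In FMD against FED, 14 members were called and all 14 were higher (26.4%), against 35.5% of all genes called higher and 1.59% called lower. They comprised the remodellers Chd1, Chd4, Chd7, Smarcad1, Smarcc1 and Arid2, the acetyltransferases Kat8 and Kat5, the methyltransferases Kmt5a, Setd7 and Setd6, the demethylase-family gene Kdm2b, the bromodomain gene Brd1 and Sirt1. All 53 fold changes were above 0, from 0.04 in Hdac5 to 0.95 in Chd1, but the member median of 0.42 was under the all-gene median and 22 of 53 members lay above it. The groups did not overlap in 40 members (75.5%), against 70.7% of all genes. Without FMD replicate 1 the count of called members was 13. The order of the medians then turned, with a member median of 0.40 against an all-gene median of 0.37. In that setting 29 of 53 members lay above the all-gene median.

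In FMD against IF, Setd7 was the 1 member called, and it was higher in FMD (1.89%), against 4.67% of all genes called higher and 0.472% called lower. The member median was 0.17 and the range was -0.20 in Smarcd1, a SWI/SNF subunit, to 0.78 in Setd7. The groups did not overlap in 20 members (37.7%), against 36.7% of all genes. Both comparisons with FED share the FED libraries. Chd4 was called in both of them, which was 33.3% of the members called in IF and 7.14% of those called in FMD, and 37 members were called in no comparison.

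**Figure D1:**
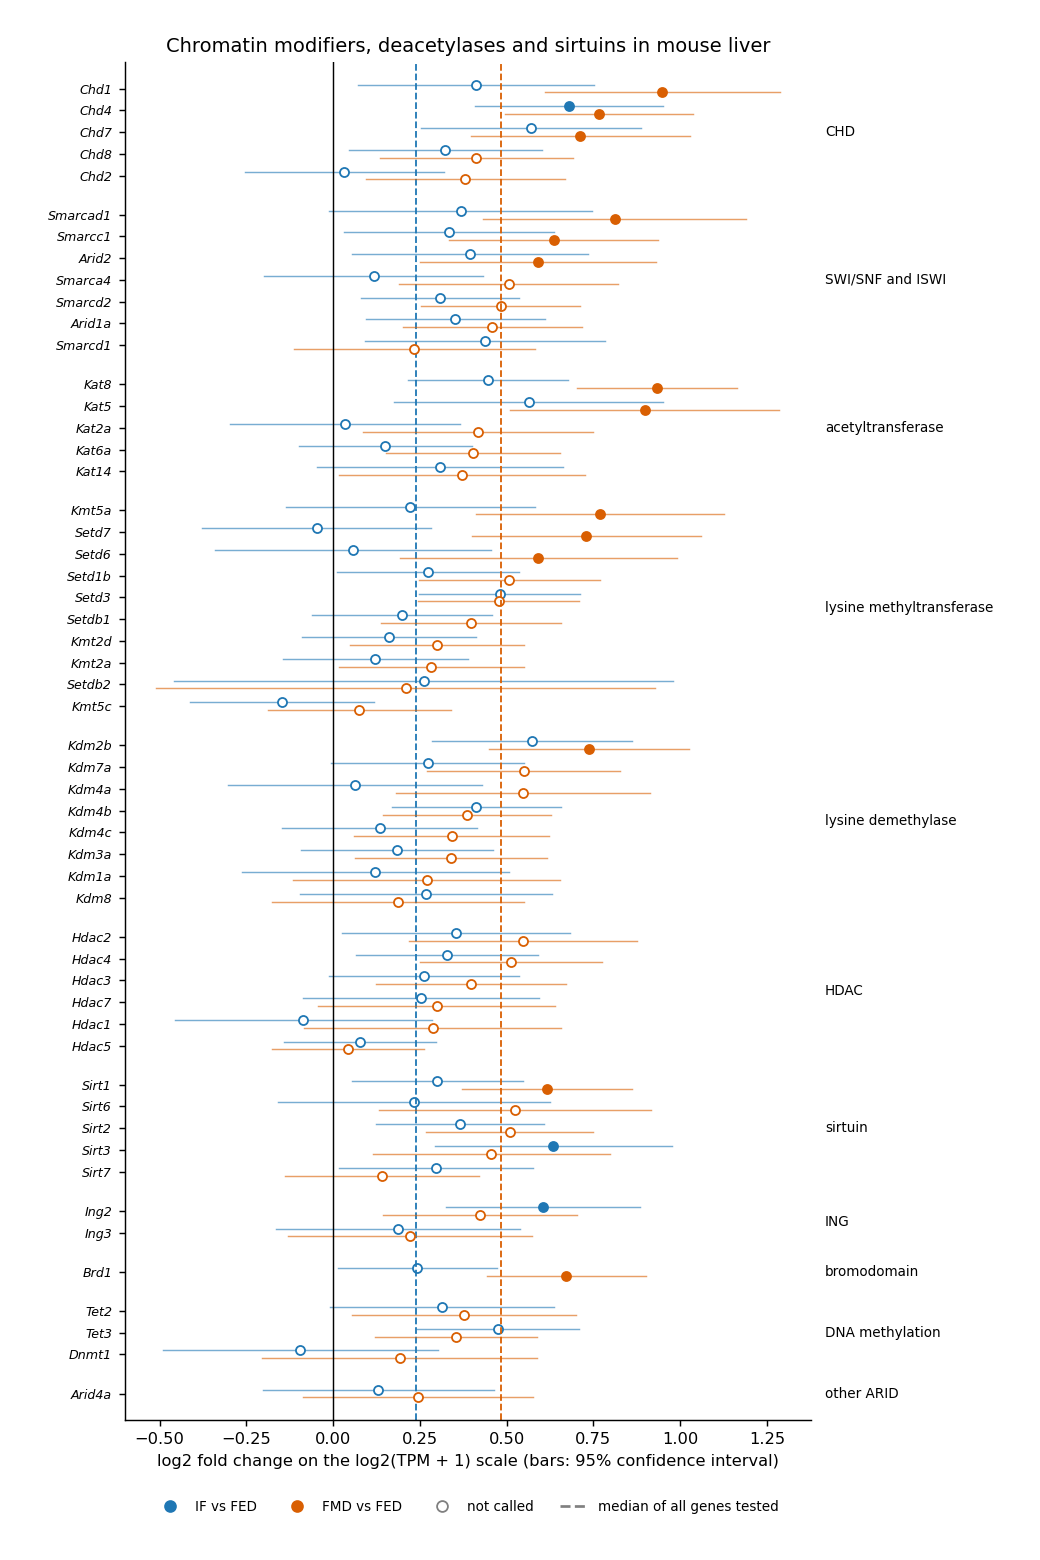
Log2 fold change on the log2(TPM + 1) scale (horizontal axis) of each of the 53 members, grouped by family, in IF against FED (blue) and FMD against FED (orange). Filled points are called and bars are 95% confidence intervals from limma. Dashed lines mark the medians of all genes tested, 0.24 for IF and 0.48 for FMD. Above that median lie 32 of 53 members in IF and 22 in FMD, the latter 29 without FMD replicate 1.

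After scaling, 0 of 53 members were called in IF against FED, against 3.69% of all genes higher and 3.45% lower. In FMD against FED 0 were called as well, against 5.49% of all genes higher and 5.64% lower. With no limit on the fold change, an alternative added after seeing the data, limma's adjusted p was under 0.05 in 3 members in the first comparison (10 at an unadjusted p under 0.05) and in 7 in the second (10 at an unadjusted p under 0.05). Of the 4665 genes tested, 332 higher and 306 lower passed the adjusted limit in the first, and 477 and 487 in the second. At an unadjusted limma p under 0.05 there were 1373 and 1692 genes. The member medians were 0.059 and -0.024, close to the all-gene medians. The members past an adjusted p of 0.05 were Chd7 (0.43), Chd4 (0.42) and Kdm2b (0.40) in IF. In FMD they were Chd1 (0.50), Kat8 (0.41), Kat5 (0.40), Chd7 (0.40), Setd7 (0.38), Kdm2b (0.37) and Hdac5 (-0.47).

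In FMD against IF, Setd7 was called after scaling with a log2 fold change of 0.59, just past the fold limit, against 1.11% of all genes higher and 1.11% lower. The member median was -0.038 after scaling. The scaled groups did not overlap in 20 members in IF against FED (37.7%, all genes 46.2%), in 9 in FMD against FED (17.0%, all genes 36.7%) and in 13 in FMD against IF (24.5%, all genes 26.3%). Without FMD replicate 1, the number of members above the all-gene median in FMD against FED after scaling was 34 in place of 22.

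**Figure D2:**
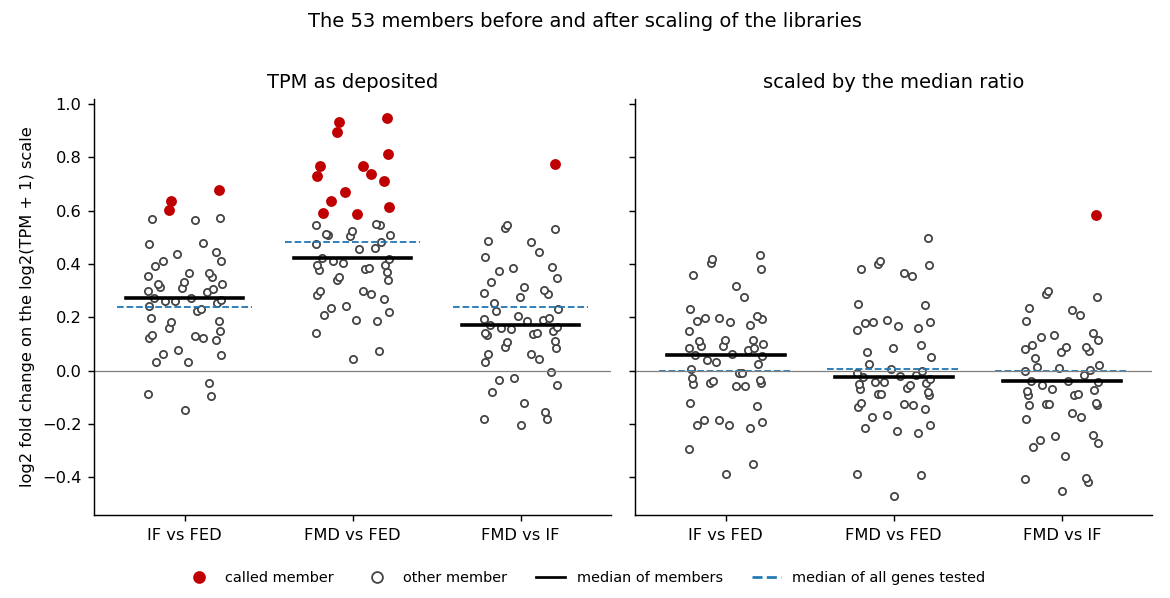
Log2 fold change on the log2(TPM + 1) scale (vertical axis) of the 53 members in the 3 comparisons, from TPM as deposited (left) and after scaling by the median ratio (right). Red points are called members (3, 14 and 1 on the left, 0, 0 and 1 on the right), black lines are member medians and dashed lines are medians of all genes tested; on the right the points spread on both sides of 0.

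Of the 7 sirtuins, 5 were members (Sirt1, Sirt2, Sirt3, Sirt6 and Sirt7), and each was tested in every comparison. Sirt3 had 80.8, 78.2 and 73.7 TPM in FED replicates 1, 2 and 3, and 121, 119 and 123 TPM in the IF replicates. In FMD replicates 1, 2 and 4 it had 81.0, 121 and 124 TPM. FMD replicate 1 thus lay beside the highest FED library, FMD replicate 2 lay among the IF libraries and FMD replicate 4 lay just above them. Sirt3 rose in IF by a log2 fold change of 0.63 ± 0.15 (SE, n = 3 per group; limma adjusted p = 0.0154). In FMD the log2 fold change was 0.46 (adjusted p = 0.0244), under the fold limit, and without FMD replicate 1 it was 0.65 (adjusted p = 0.000314) and called. The IF call did not pass an adjusted p of 0.05 without FED replicate 2 (0.0503), FED replicate 3 (0.0599), IF replicate 1 (0.0564) or IF replicate 2 (0.0559). After scaling, the log2 fold change of Sirt3 was 0.36 in IF, with an adjusted p of 0.308. For FMD the scaled value was -0.09, with an adjusted p of 0.806, so that neither passed. The negative sign depended on FMD replicate 1, which had 56.7 scaled TPM against 87.4 to 99.1 in FED. FMD replicates 2 and 4, at 106 and 114 scaled TPM, lay above every FED library. Without FMD replicate 1 the scaled FMD value of Sirt3 was 0.22 and not called.

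Sirt1, at 3.22, 3.29 and 3.75 TPM in FED, had 4.46, 4.75 and 4.12 TPM in IF. The FMD libraries had 5.82, 5.41 and 6.08 TPM. The 3 groups did not overlap and every FMD library was above every IF library. Sirt1 rose in FMD against FED by 0.62 ± 0.11 on the log2 scale (SE, n = 3 per group; limma adjusted p = 0.00146), while the IF difference of 0.30 did not pass (adjusted p = 0.0716), nor did the direct difference of 0.32 between FMD and IF (adjusted p = 0.0871). The FMD fold change of Sirt1 was 0.58, just under the limit, without FED replicate 1 or without FMD replicate 4, and after scaling it was 0.17 (adjusted p = 0.298).

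Sirt2, a mainly cytosolic deacetylase of tubulin and histone H4, had 29.1, 34.2 and 32.8 TPM in FED and 43.3, 39.0 and 42.2 in IF. Its values in FMD were 48.2, 43.3 and 46.4 TPM. Neither diet group overlapped with FED, and the log2 fold change stayed under the fold limit in IF (0.37, limma adjusted p = 0.0339) and in FMD (0.51, adjusted p = 0.00319), with 0.09 and -0.03 after scaling. Sirt7, a nucleolar deacetylase, had 26.9, 21.5 and 26.1 TPM in FED, 29.4, 33.4 and 29.1 in IF, and 25.2, 26.6 and 30.4 in FMD. Its FMD libraries overlapped with both other groups, and neither log2 fold change against FED passed (0.30 in IF, 0.14 in FMD), nor did those after scaling (0.03 and -0.39). Sirt6, a nuclear deacetylase of histone H3 and the lowest sirtuin, had 1.48, 1.56 and 1.36 TPM in FED, 2.20, 2.07 and 1.47 in IF, and 3.49, 2.60 and 1.76 in FMD. The FMD libraries of Sirt6 spanned a wider range than the other groups did, and the log2 fold change of 0.52 in FMD (limma adjusted p = 0.0239) stayed under the limit, but was 0.71 and called without FMD replicate 4, and was 0.36 (adjusted p = 0.0664) without FMD replicate 1. After scaling it was 0.16.

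**Figure D3:**
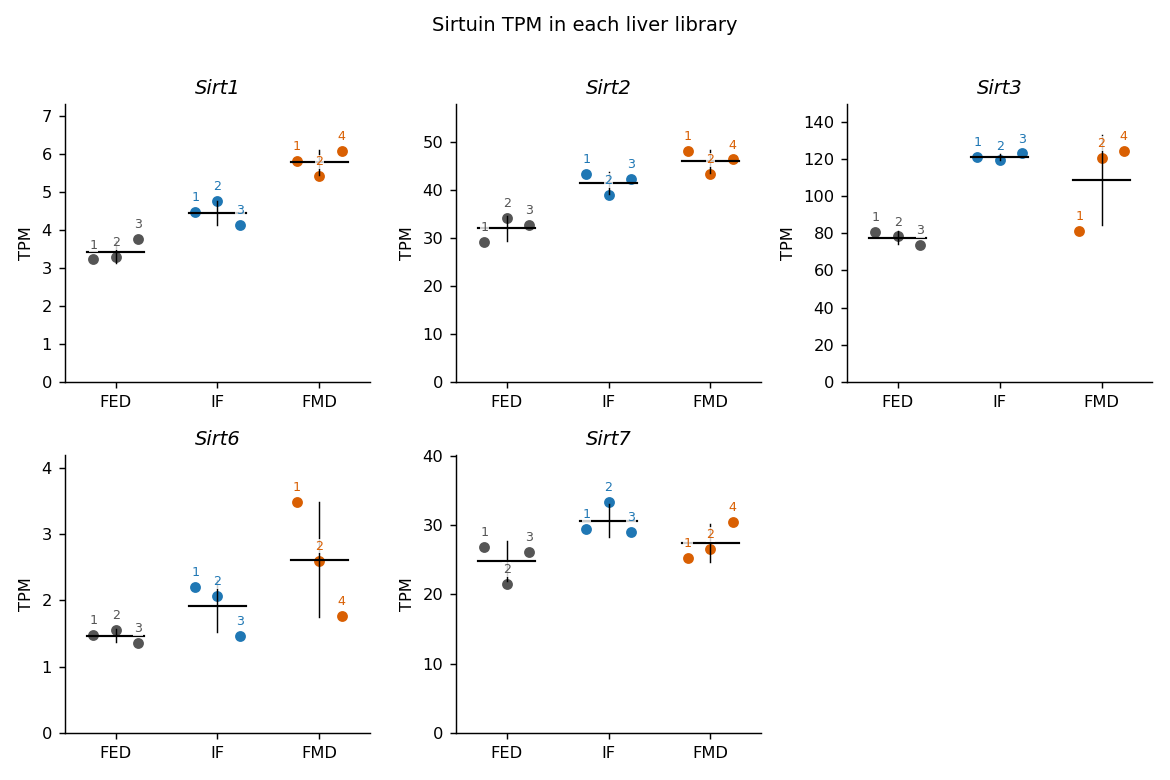
TPM (vertical axes, from 0) of the 5 sirtuins among the members in each FED, IF and FMD library, with the replicate number beside each point. Horizontal lines are group means and vertical lines SD (n = 3); Sirt1 stood highest in all FMD libraries, and Sirt3 in FMD replicate 1 (81.0 TPM) lay beside the FED libraries.

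The promoters of Sirt1, Sirt3 and Setd7 are shown because Sirt1 and Sirt3 are the called sirtuins and Setd7 is the member called after scaling. Each run is 300 bases from RefSeq (GRCm38.p6) that span the annotated transcript start, on the strand of the gene. Capitals mark matches, on either strand, to the 5 motifs searched: CACGTG (E-box), TGACGTCA (cAMP response element), GTAAACA (forkhead), GGGCGG (Sp1 box) and CCGGAAG (Ets). Sirt1 lies at chr10:63338986-63339285, minus strand. The upstream Sirt3 start lies at chr7:140882260-140882559, minus strand, and a second listed start lies downstream of it at chr7:140881820-140882119. Setd7 lies at chr3:51560774-51561073, minus strand.
Sirt1: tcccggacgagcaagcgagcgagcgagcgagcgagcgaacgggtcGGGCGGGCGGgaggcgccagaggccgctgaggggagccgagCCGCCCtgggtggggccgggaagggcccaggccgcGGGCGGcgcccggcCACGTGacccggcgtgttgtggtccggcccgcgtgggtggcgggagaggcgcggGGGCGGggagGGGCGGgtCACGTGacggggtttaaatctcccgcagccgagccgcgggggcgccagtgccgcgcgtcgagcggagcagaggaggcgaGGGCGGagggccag
Sirt3 upstream start: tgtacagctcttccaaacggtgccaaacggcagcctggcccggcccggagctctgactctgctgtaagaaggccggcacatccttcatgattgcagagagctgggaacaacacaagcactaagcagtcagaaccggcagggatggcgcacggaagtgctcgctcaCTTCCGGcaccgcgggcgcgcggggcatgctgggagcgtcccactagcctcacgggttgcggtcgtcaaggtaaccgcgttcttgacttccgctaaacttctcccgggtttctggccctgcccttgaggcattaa
Setd7: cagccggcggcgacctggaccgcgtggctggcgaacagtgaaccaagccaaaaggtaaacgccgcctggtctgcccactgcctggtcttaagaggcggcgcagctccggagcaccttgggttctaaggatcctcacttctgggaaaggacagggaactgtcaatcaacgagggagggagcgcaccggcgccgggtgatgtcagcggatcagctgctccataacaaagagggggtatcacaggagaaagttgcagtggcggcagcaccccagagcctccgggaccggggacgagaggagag
The Sirt1 promoter held 2 CACGTG and 7 GGGCGG matches, 2 of the latter overlapping, and 47 CpG. The Sirt3 upstream promoter held 1 CCGGAAG match and 23 CpG, the downstream one 4 GGGCGG matches and 24 CpG, and the Setd7 promoter none of the 5 motifs and 21 CpG. Promoters were matched for 43 members. Of these 6.98% held CACGTG (all promoters 7.24%), 2.33% TGACGTCA (1.88%), 0% GTAAACA (3.55%), 69.8% GGGCGG (35.9%) and 23.3% CCGGAAG (9.12%). Among the promoters of genes tested the shares were 11.4% for CACGTG, 3.80% for TGACGTCA, 2.41% for GTAAACA, 69.6% for GGGCGG and 22.7% for CCGGAAG. The members had a median of 23 CpG, the genes tested 22 and all promoters 7.

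Among remodellers, 6 of 12 members were called higher in FMD and 1 of 12 in IF, against 35.5% and 10.3% of all genes. After scaling none was called, against 5.49% and 3.69% of all genes called higher. Chd4 had 11.2, 14.7 and 12.8 TPM in FED and 20.7, 22.1 and 20.7 in IF. FMD replicates 1, 2 and 4 had 23.3, 23.9 and 20.5 TPM. Every library of either diet was above every FED library, and IF and FMD overlapped. The rise of Chd4 against FED was 0.68 ± 0.12 on the log2 scale in IF (SE, n = 3 per group; limma adjusted p = 0.00402) and 0.77 ± 0.12 in FMD, with an adjusted p of 0.0008. Leaving out any library kept both calls, and after scaling the values were 0.42 and 0.25. The genes whose scaled log2 values over the 9 libraries were most like those of Chd4 were Syap1, Bcl2l13 and Tomm70a, with Pearson r of 0.96, 0.95 and 0.94, given as a description.

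Chd1, a remodeller that binds methylated histone H3 lysine 4, had 2.97, 2.97 and 3.06 TPM in FED and 4.21, 5.04 and 3.79 in IF. The FMD values were 8.13, 7.11 and 5.21 TPM. The 3 groups did not overlap. Chd1 showed the highest member fold change in FMD, 0.95 ± 0.15 on the log2 scale (SE, n = 3 per group; limma adjusted p = 0.000856), and 0.50 after scaling (adjusted p = 0.0118). The direct difference of 0.54 from IF did not pass (adjusted p = 0.0549), but was 0.69 (adjusted p = 0.00794) without FMD replicate 4.

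Chd7, a remodeller of developmental enhancers, had 0.66, 0.89 and 1.04 TPM in FED, 1.70, 2.03 and 1.56 in IF, and 2.57, 1.87 and 1.75 in FMD. Both diet groups lay above FED and overlapped with each other. Chd7 rose in FMD by 0.71 (limma adjusted p = 0.00238), while the IF value of 0.57 (adjusted p = 0.0171) lay just under the fold limit and was called without FED replicate 3 (0.64) or IF replicate 3 (0.62). Chd8 (0.32 in IF, 0.41 in FMD) and Chd2 (0.03 and 0.38) were not called.

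Smarcad1, an ATPase of the SNF2 family, had 4.45, 2.69 and 2.96 TPM in FED and 4.90, 4.58 and 4.20 in IF. The FMD replicates had 8.11, 6.18 and 5.59 TPM, above every FED and IF library, and it rose against FED by 0.81 (limma adjusted p = 0.003). Smarcc1, a core subunit of SWI/SNF, had 3.01, 3.74 and 4.06 TPM in FED, 4.98, 4.67 and 4.68 in IF, and 6.99, 6.38 and 5.11 in FMD. Its FMD libraries were above all others and its log2 fold change against FED was 0.64 (limma adjusted p = 0.00325), lost to the fold limit without FED replicate 1 (0.54) or FMD replicate 1 (0.55). Arid2, a subunit of the PBAF form of SWI/SNF, had 1.73, 2.16 and 2.46 TPM in FED, 3.01, 3.63 and 2.65 in IF, and 4.17, 4.02 and 2.92 in FMD. Neither diet group overlapped with FED, and the FMD value of 0.59 was just past the limit and under it without FED replicate 1 (0.50), FMD replicate 1 (0.52) or FMD replicate 2 (0.54). The ATPase Smarca4 (0.51), Smarcd2 (0.48), Arid1a (0.46) and Smarcd1 (0.23) were not called in FMD. Smarca4 was called without FMD replicate 4 (0.64), and Smarcd1 stood at 0.12 without FMD replicate 1. None of the 7 genes of this family was called in IF, where values ran from 0.12 to 0.44. After scaling, the FMD values were 0.36 for Smarcad1 and 0.18 for both Smarcc1 and Arid2, none past an adjusted p of 0.05.

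Among acetyltransferases, 2 of 5 were called higher in FMD, near the 35.5% of all genes, and none in IF (all genes 10.3%). Kat8 (MOF), the acetyltransferase of histone H4 lysine 16, had 11.8, 11.5 and 12.6 TPM in FED and 16.7, 16.5 and 16.7 in IF. Under FMD the values were 25.9, 23.2 and 22.3 TPM. The 3 groups did not overlap, and Kat8 varied least of all members among the IF replicates, with a coefficient of variation of 0.68%. Kat8 rose in FMD against FED by 0.93 ± 0.10 on the log2 scale (SE, n = 3 per group; limma adjusted p = 0.000134). The differences of 0.45 in IF against FED (adjusted p = 0.0129) and 0.49 in FMD against IF (adjusted p = 0.0296) stayed under the fold limit. After scaling, the FMD fold change was 0.41 (adjusted p = 0.00763).

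Kat5 (TIP60), the acetyltransferase of the NuA4 complex, had 5.37, 6.33 and 7.17 TPM in FED and 9.79, 10.2 and 9.23 in IF. The FMD libraries had 16.9, 11.6 and 9.91 TPM, with the highest value in FMD replicate 1. Both diets lay above FED. Kat5 rose in FMD by 0.90 ± 0.17 on the log2 scale (SE, n = 3 per group; limma adjusted p = 0.00208), and by 0.69 without FMD replicate 1. Its IF value was 0.56 (adjusted p = 0.0402). Kat2a (0.42), Kat6a (0.40) and Kat14 (0.37) were not called in FMD, and without FMD replicate 1 Kat2a stood at 0.24 and Kat14 at 0.22. In IF the 3 genes stood at 0.03, 0.15 and 0.31.

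**Figure D4:**
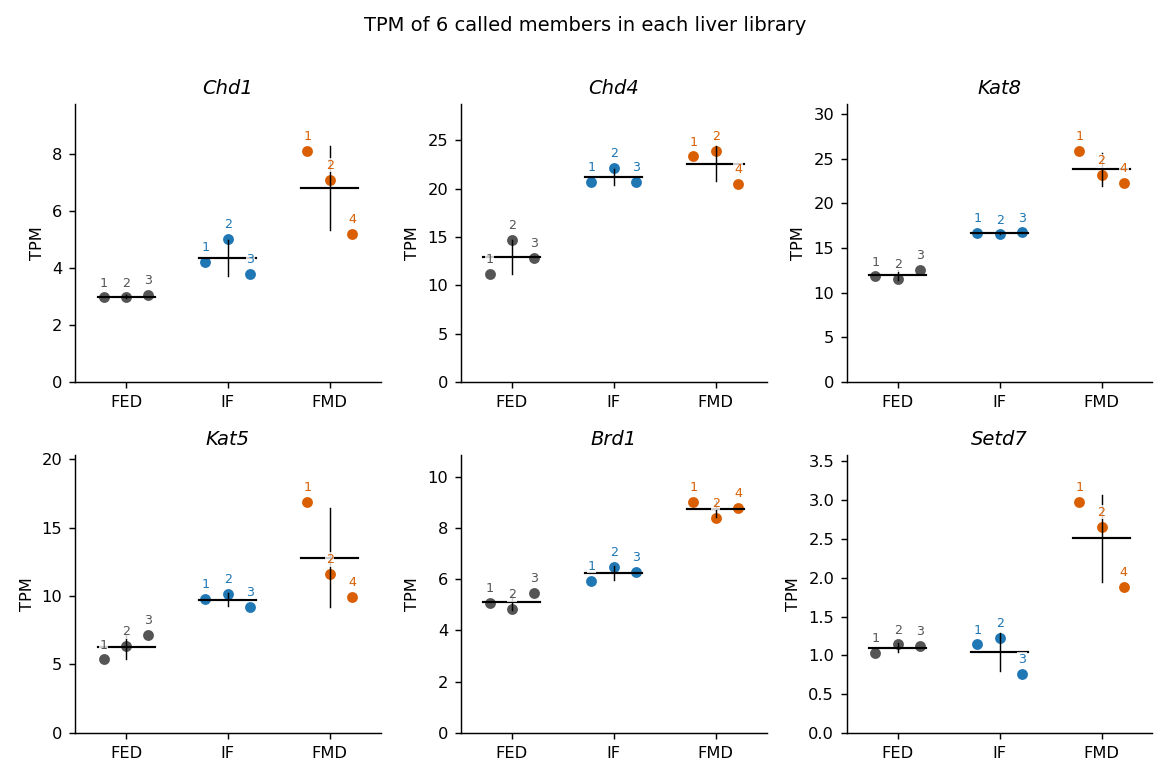
TPM (vertical axes, from 0) of 6 called members, the remodellers Chd1 and Chd4, the acetyltransferases Kat8 and Kat5, the bromodomain gene Brd1 and the methyltransferase Setd7, in each FED, IF and FMD library, with replicate numbers beside the points. Horizontal lines are group means and vertical lines SD (n = 3); the IF and FMD libraries of Chd4 overlapped, whereas all FMD libraries of Setd7 (1.88 to 2.98 TPM) were above all others.

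Among lysine methyltransferases, 3 of 10 were called higher in FMD, under the 35.5% of all genes, and none in IF (all genes 10.3%). Setd7, which methylates histone H3 lysine 4 and non-histone proteins, had 1.03, 1.14 and 1.12 TPM in FED and 1.14, 1.22 and 0.76 in IF. Its values in FMD were 2.98, 2.66 and 1.88 TPM. The FED and IF libraries overlapped and every FMD library was above them. Setd7 rose in FMD against FED by 0.73 ± 0.15 (SE, n = 3 per group; limma adjusted p = 0.00263) and in FMD against IF by 0.78 ± 0.15 (adjusted p = 0.0219), while its IF difference from FED was -0.05 (adjusted p = 0.831).

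The FMD against IF call of Setd7 did not pass an adjusted p of 0.05 without IF replicate 1 (0.0736), IF replicate 2 (0.0722) or IF replicate 3 (0.0911). After scaling the difference was 0.59 (limma adjusted p = 0.0303). That call was lost without FED replicate 2 or 3, without each IF replicate, and without FMD replicate 1 or 2, with log2 fold changes of 0.59, 0.59, 0.61, 0.64, 0.50, 0.56 and 0.52. The genes most like Setd7 over the 9 libraries after scaling were Rfx1, Maff and Heatr5b, with Pearson r of 0.94, 0.93 and 0.92, given as a description.

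Kmt5a (SET8), the monomethyltransferase of histone H4 lysine 20, had 10.7, 12.6 and 10.99 TPM in FED, 13.2, 14.0 and 13.3 in IF, and 25.5, 15.4 and 20.8 in FMD. Setd6, which methylates the NF-kappaB subunit RelA, had 11.9, 13.0 and 11.4 TPM in FED, 13.3, 13.4 and 11.3 in IF, and 23.9, 13.5 and 20.3 in FMD. In both genes FMD replicate 2 lay close to the IF libraries and the other FMD libraries were well above them. Kmt5a rose in FMD against FED by 0.77 (limma adjusted p = 0.00296), with 0.61 and still called without FMD replicate 1, and Setd6 by 0.59 (adjusted p = 0.0154). After scaling the values were 0.25 and 0.07. The Setd6 call was lost without FED replicate 1 (0.58), FED replicate 3 (adjusted p = 0.0502), FMD replicate 1 (0.42) or FMD replicate 4 (0.54). Without FMD replicate 2, Kmt5a and Setd6 were also called in FMD against IF, at 0.73 and 0.76.

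The related Kmt5c, which adds further methyl groups at the same lysine, had 4.89 to 5.70 TPM in FED, 4.50 to 4.89 in IF and 5.14 to 6.51 in FMD, and was called in no comparison. Its FMD log2 fold change was 0.08, and 0.12 without FMD replicate 1. After scaling it was the lowest member in IF against FED, at -0.39 (limma adjusted p = 0.0910), with the same value of -0.39 in FMD (adjusted p = 0.0724). Setdb2, a relative of the histone H3 lysine 9 methyltransferase Setdb1, was the most variable member in FMD, with 2.93, 9.43 and 3.44 TPM, against 3.13 to 4.36 in FED and 3.40 to 5.99 in IF. Its high value lay in FMD replicate 2, and the log2 fold change in FMD against FED ran from -0.23 without that library to 0.47 without FMD replicate 1. Setd1b (0.51), Setd3 (0.48), Setdb1 (0.40), Kmt2d (0.30), Kmt2a (0.28) and Setdb2 (0.21) were not called in FMD.

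Among lysine demethylases, 1 of 8 was called higher in FMD, under the 35.5% of all genes, and none in IF (all genes 10.3%). Kdm2b, a CpG-binding subunit of a variant Polycomb complex, had 1.52, 1.30 and 1.37 TPM in FED and 2.81, 2.34 and 2.56 in IF. FMD replicates 1, 2 and 4 had 3.58, 2.48 and 2.99 TPM. Both diets lay above FED and overlapped with each other. Kdm2b rose in FMD by 0.74 ± 0.13 on the log2 scale (SE, n = 3 per group; limma adjusted p = 0.00131), and in IF its value of 0.57 (adjusted p = 0.0113) was just under the fold limit, with 0.61 without FED replicate 1 and 0.62 without IF replicate 2.

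The other demethylases were not called. Kdm7a stood at 0.55 in FMD and Kdm4a at 0.55, followed by Kdm4b at 0.39, Kdm4c and Kdm3a at 0.34, Kdm1a (LSD1) at 0.27 and Kdm8 at 0.19. Without FMD replicate 1, Kdm1a stood at 0.05 and Kdm4c at 0.23, and Kdm8 ran from 0.08 to 0.31 over the libraries left out. Kdm4a, which acts on histone H3 lysines 9 and 36, had 6.12, 6.69 and 7.63 TPM in FED, 8.05, 7.10 and 6.36 in IF, and 13.7, 9.33 and 8.73 in FMD. FED and IF overlapped and the FMD libraries lay above both, and Kdm4a was called against FED when FED replicate 3 (0.62), FMD replicate 2 (0.62) or FMD replicate 4 (0.66) was left out. Without FMD replicate 1 it stood at 0.36 against FED and 0.30 against IF, whereas without FMD replicate 4 it was also called against IF (0.60). Kdm7a was called in FMD without FED replicate 2 (0.61) or FMD replicate 4 (0.59).

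Of all genes tested, 10.3% were called higher in IF, 35.5% in FMD and 4.67% in FMD against IF. None of the 6 zinc-dependent deacetylases among the members was called in any comparison. In FMD against FED their log2 fold changes were 0.55 for Hdac2, 0.51 for Hdac4, 0.40 for Hdac3, 0.30 for Hdac7, 0.29 for Hdac1 and 0.04 for Hdac5, and in IF they ran from -0.09 in Hdac1 to 0.36 in Hdac2. Hdac5, a class IIa enzyme that shuttles between nucleus and cytoplasm, had 12.8, 13.0 and 13.0 TPM in FED and 13.7, 13.4 and 14.0 in IF. The FMD values were 12.7, 14.1 and 13.2 TPM. All 9 libraries lay between 12.7 and 14.1 TPM, and after scaling Hdac5 was the lowest member in FMD against FED, at -0.47 (limma adjusted p = 0.0203), under the fold limit. Hdac2 was called in FMD without FED replicate 1 (0.60), FMD replicate 2 (0.60) or FMD replicate 4 (0.66), and Hdac4 without FMD replicate 1 (0.59). Without FMD replicate 1, Hdac2 stood at 0.37 and Hdac1 and Hdac5 at 0.08, without FMD replicate 4 Hdac1 stood at 0.47, and without FMD replicate 2 Hdac7 stood at 0.14.

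Hdac1 and Hdac2 are the paired catalytic subunits of the Sin3, NuRD and CoREST corepressors. Hdac1 had 13.2, 13.6 and 13.3 TPM in FED, 12.5, 12.9 and 12.3 in IF, and 22.2, 16.04 and 12.6 in FMD. Hdac2 had 13.3, 11.7 and 11.99 TPM in FED, 16.1, 16.1 and 15.8 in IF, and 23.8, 16.9 and 15.5 in FMD. The IF libraries of Hdac1 lay below all its FED libraries and its highest value was that of FMD replicate 1, while Hdac2 was higher than every FED library in all libraries of both diets. Their ratio within a library, which no scaling of that library can move, was 0.86 to 1.01 in FED, 1.25 to 1.29 in IF and 1.05 to 1.23 in FMD.

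Other ratios of related members were also set side by side. The pairs were chosen after their values were seen, so these ratios are a description. A permutation test of the 6 pairs, Hdac2 over Hdac1 among them, could give no p below 0.1, so it could not decide. Its lowest adjusted p over 18 comparisons was 0.15. Kat8 over Kat2a was 1.49 to 1.63 in FED, 2.08 to 2.16 in IF and 1.86 to 2.50 in FMD. Kmt5a over Kmt5c was 1.93 to 2.41 in FED, 2.72 to 3.05 in IF and 2.99 to 4.87 in FMD. In both pairs the diet libraries lay above all FED libraries. Sirt3 over Sirt1 was 19.7 to 25.1 in FED, 25.1 to 29.8 in IF and 13.9 to 22.3 in FMD. Its IF libraries lay above all FMD libraries, and the lowest ratio was that of FMD replicate 1. Kdm4b over Kdm4a was 0.42 to 0.51 in FED, 0.52 to 0.68 in IF and 0.31 to 0.49 in FMD. Smarcd2 over Smarcd1 was 9.10 to 10.8 in FED, 6.93 to 8.86 in IF and 9.09 to 13.0 in FMD, so that in both pairs the IF libraries stood apart from the FED and FMD libraries, which overlapped.

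**Figure D5:**
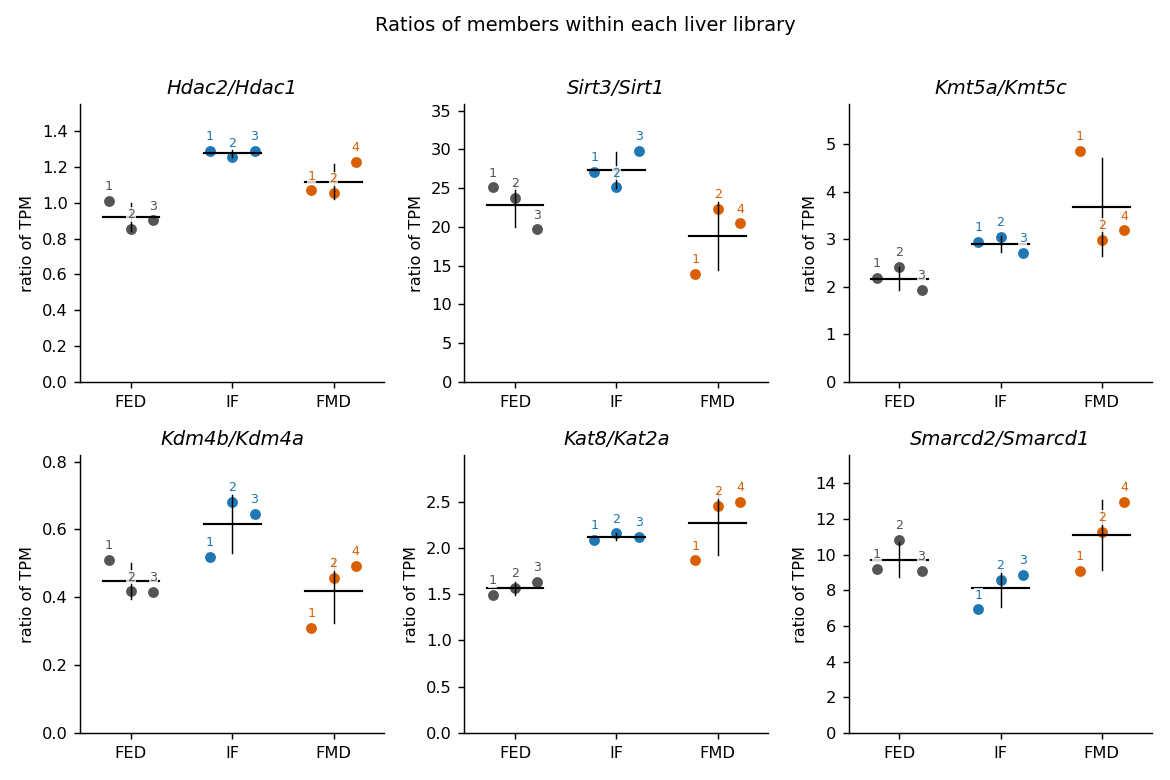
Ratio of the TPM of 6 pairs of members (vertical axes, from 0) within each FED, IF and FMD library, with replicate numbers beside the points. Horizontal lines are group means and vertical lines SD (n = 3); Hdac2 over Hdac1 was highest in the IF libraries (1.25 to 1.29), and Sirt3 over Sirt1 was lowest in FMD replicate 1 (13.9).

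Ing2, which reads methylated histone H3 lysine 4 in the Sin3 complex, had 3.21, 3.34 and 3.84 TPM in FED and 5.31, 6.19 and 5.85 in IF. The FMD replicates had 5.14, 4.24 and 5.63 TPM. Both diets lay above FED. Ing2 rose in IF by 0.60 ± 0.13 on the log2 scale (SE, n = 3 per group; limma adjusted p = 0.0082), with 0.56 and no call without FED replicate 1 or IF replicate 2, and stood at 0.42 in FMD (adjusted p = 0.0141). After scaling these were 0.38 and -0.02, neither past an adjusted p of 0.05. Ing3 of the NuA4 complex was not called (0.19 in IF, 0.22 in FMD, the latter 0.15 without FMD replicate 1).

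Brd1, a bromodomain scaffold of acetyltransferase complexes, had 5.06, 4.84 and 5.45 TPM in FED and 5.94, 6.49 and 6.28 in IF. Under FMD the values were 9.02, 8.40 and 8.79 TPM. The 3 groups did not overlap. Brd1 rose in FMD against FED by 0.67 ± 0.10 on the log2 scale (SE, n = 3 per group; limma adjusted p = 0.000689), and after scaling the value was 0.19. Its difference of 0.43 between FMD and IF had an adjusted p of 0.0373 and stayed under the fold limit.

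None of the 3 genes of DNA methylation was called (all genes called higher: 10.3% in IF and 35.5% in FMD). Dnmt1, the maintenance methyltransferase, had 2.10 to 2.29 TPM in FED, 1.65 to 2.21 in IF and 1.80 to 3.79 in FMD, with the highest value in FMD replicate 1. Its log2 fold change in FMD against FED was 0.19, and -0.01 without that library. Tet3, which oxidises methylcytosine, had 2.02 to 2.20 TPM in FED, 3.19 to 3.43 in IF and 2.77 to 3.14 in FMD, with no overlap between any of the groups and log2 fold changes of 0.47 (IF, limma adjusted p = 0.0106) and 0.35 (FMD, adjusted p = 0.0142). Tet2 stood at 0.32 in IF and 0.38 in FMD. Arid4a, a DNA-binding subunit of the Sin3 corepressor, stood at 0.13 and 0.24.

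Another 158 chromatin genes outside the symbol rule, such as complex subunits, were listed for comparison, and 70 of them were tested. In IF 8 were called (11.4%), in FMD 25 (35.7%) and in FMD against IF 1 (1.43%), all higher, against 10.3%, 35.5% and 4.67% of all genes called higher, with median log2 fold changes of 0.28, 0.54 and 0.21. After scaling the counts were 2 (2.86%), 2 (2.86%) and 0, against 3.69%, 5.49% and 1.11% of all genes called higher. Brpf3, a scaffold of the MOZ and HBO1 complexes, had 4.28 to 5.47 TPM in FED, 7.48 to 9.28 in IF and 10.4 to 11.7 in FMD, and rose by 0.73 in IF (limma adjusted p = 0.00321) and 1.08 in FMD, with an adjusted p of 0.000169. Jade2, a scaffold of HBO1 complexes, had 0.88 to 1.15 TPM in FED, 2.40 to 3.41 in IF and 2.67 to 3.02 in FMD, and rose by 0.99 in IF (adjusted p = 0.000739) and 0.95 in FMD, with an adjusted p of 0.000367. These were the only 2 genes of the list called in FMD after scaling. Tada2b of the SAGA complex (0.70) and Cbx7 of Polycomb complexes (0.88) were called in IF, and Asxl1 (0.86) in FMD. Zmynd8, a reader of acetylated and methylated histones, was the gene called in FMD against IF, at 0.61 (adjusted p = 0.0398).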

How the data were processed

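Strand-specific mRNA libraries of 3 livers per group were made after oligo-dT enrichment and sequenced on the DNBSEQ platform for the authors. The authors deposited TPM values with 2 decimals, 1 column per library. The submitters' processing notes name mm39 and DESeq2, with no role given. The aligner, the annotation and how the 5608 genes were chosen are not given in the sources used here. The table holds part of each library, so the depth is unknown and no counting interval is given.

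Samples were grouped by their labels. The values were analysed as log2(TPM + 1), with 1 as the pseudocount, for 4665 genes whose mean reached 1 TPM, using limma 3.58.1 in R 4.3.3 (1 fit of all 9 libraries, eBayes with trend). P-values were adjusted by Benjamini-Hochberg over all genes tested. They measure the spread between these libraries, of which the study's methods say that each group came from 3 mice. The fit was tested on simulated data. Other tables were computed in python 3.11.15 with pandas 2.3.3, and figures drawn with matplotlib 3.10.9.

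The genes and the lists were chosen with earlier results of these data known. The genes named are every called member, all sirtuin, HDAC, Dnmt and Tet members, the 5 highest and lowest members by level and by scaled fold change, genes near the level threshold, and up to 3 genes per list and comparison with the smallest adjusted p. All other members are named by family. Some genes of the lists that met this rule are not reported here. The lists held other chromatin genes, genes that supply or use NAD, SAM, acetyl-CoA and 2-oxoglutarate, sirtuin substrates, histone genes and cell type markers.

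Alternatives covered the pseudocount, the filter, 3 other scalings, 1 fit per pair of groups, the eBayes options, the thresholds, a replicate block and each library left out. The scaled counts with no limit on the fold change and the ratios within libraries were added after seeing the data. Replicate numbers were checked for pairing. Of 7 pairs of libraries with the same number, 3 had a correlation of their deviations over 0.1 (range -0.0051 to 0.17). Pairs with different numbers ran from -0.20 to 0.22. With so few pairs the check could not decide. The numbers were not taken to pair the samples, and a replicate block was run as an alternative. Promoter sequences came from RefSeq tables of GRCm38.p6, a build other than that named by the submitters.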

Additional observations from a re-analysis of the deposited data

Results flagged for a closer look

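In 3 of the 53 members the response to the diets differed between FMD and IF by the direct limma test of the groups (Benjamini-Hochberg adjusted p under 0.05, no limit on the fold change). At the same limit, 322 of the 4665 genes tested were higher in FMD and 33 were lower. For Setd7 the log2 difference was 0.78, and 3 of 3 FMD libraries lay above all IF libraries. For Kat8 it was 0.49 and for Brd1 0.43, each again with no overlap between the groups. After scaling, the differences were 0.59, 0.23 and 0.19, and adjusted p was 0.0303 for Setd7, 0.141 for Kat8 and 0.290 for Brd1. No group of 4 or more libraries was available for a test of single outlying libraries.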

How the results depend on the processing

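No call changed direction under the alternatives that gave values of single genes. These were a pseudocount of 0.1, scaling by the median ratio, a replicate block and each library left out. The others gave counts of members alone, so the direction of a lost call was not checked there. The calls depended most on scaling. The numbers of members called were 3 in IF against FED, 14 in FMD against FED and 1 in FMD against IF. After scaling by the median ratio they were 0, 0 and 1, with member medians of 0.059, -0.024 and -0.038, after quantile normalization 0, 0 and 0, and after scaling by the sum of listed TPM 0, 1 and 1. A pseudocount of 0.1 gave 7 called members in IF and a median of 0.51 in FMD, and a pseudocount of 0.5 gave 6 in IF. A filter at a mean of 5 TPM gave 6 in FMD and 0 in FMD against IF, where the members below it drop out by construction. With no limit on the fold change 11, 39 and 3 members passed, and after scaling 3, 7 and 1. Of the 4665 genes tested, those passing were 1025 higher and 87 lower, 3016 and 119, and 322 and 33. After scaling these were 332 and 306, 477 and 487, and 79 and 79. In FMD against IF, 1 fit of these groups alone and an adjusted p under 0.01 each gave 0. The cause of the other differences was not tested.

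When each library was omitted, the members called were 2 to 4, 11 to 17 and 0 to 3, the member medians 0.24 to 0.33, 0.40 to 0.47 and 0.12 to 0.23, and the members above the all-gene median 28 to 33, 18 to 29 and 17 to 25. After scaling these were 0 to 0, 0 to 0 and 0 to 1 called, 0.03 to 0.06, -0.05 to 0.05 and -0.06 to 0.00 as medians, and 30 to 35, 20 to 34 and 19 to 27 above the median. The fewest calls in FMD came without FED replicate 1 and the most without FMD replicate 4.

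The replicate numbers were not taken to pair the samples, and the check of them could not decide this with only 7 pairs of libraries. With a replicate block 3, 17 and 3 members were called, with Chd1 and Kdm4a added in FMD against IF, and in FMD against FED Hdac2, Smarca4, Kdm4a and Sirt6 added and Setd6 lost (0.48).

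The table gives no counts, so the depth of single values is unknown, and low members such as Setd7, Chd7 and Kdm2b (under 3 TPM on average) depend on the pseudocount. At 0.1 the log2 differences in IF against FED were 0.96 for Chd7 and 0.83 for Kdm2b, both then called, and 1.19 for Setd7 in FMD against IF.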

Other observations

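Genes that supply or use the cofactors of the chromatin enzymes were followed as lists, of which only part was listed in the table. Of all genes tested, 10.3% were called higher and 1.59% lower in IF, 35.5% and 1.59% in FMD, and 4.67% and 0.472% in FMD against IF. After scaling these shares were 3.69% and 3.45% in IF, 5.49% and 5.64% in FMD, and 1.11% and 1.11% in FMD against IF. With few genes a list, the counts called in each list are a description. Of the genes of NAD supply and use, 6 of 25 were tested, and 3 were called higher in IF, 3 in FMD and 1 in FMD against IF. Nampt, the rate-limiting enzyme of NAD salvage, had 7.95, 7.96 and 10.2 TPM in FED, 22.7, 25.0 and 20.8 in IF, and 26.9, 28.5 and 39.6 in FMD, with no overlap between the groups. The log2 rise was 1.30 in IF (limma adjusted p = 0.000535) and 1.74 in FMD, with an adjusted p of 4.49e-05, and after scaling 1.05 and 1.23. Slc25a51, the mitochondrial NAD carrier, rose by 1.43 in FMD against FED and by 0.91 in FMD against IF (adjusted p = 0.0129). Nnt RNA, of the mitochondrial transhydrogenase (protein not measured), rose by 1.78 in IF and 1.34 in FMD. Nadk2, the mitochondrial NAD kinase, rose by 0.59 in IF. After scaling 2 were called higher in IF and 3 in FMD, Nadk2 was not called (0.31, adjusted p = 0.261), and in FMD against IF Slc25a51 was called higher and Nnt lower (-0.71).

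Of the SAM cycle genes, 11 of 21 were tested, with 1 called in IF, 4 in FMD and 1 in FMD against IF, all higher. Mat2a, which makes SAM, had 24.6 to 25.8 TPM in FED, 40.5 to 43.5 in IF and 57.0 to 63.7 in FMD. It rose by 0.73 in IF and by 1.21 in FMD (limma adjusted p = 2.49e-05). Mtrr, a reductase that reactivates methionine synthase, rose by 0.76 in FMD against FED and 0.69 in FMD against IF. After scaling the counts were 0, 2 and 0, and Mtrr was under the fold limit at 0.36 and 0.48. Of the genes of acetyl-CoA supply, 9 of 18 were tested, with 3 higher and 2 lower in IF, 4 higher and 2 lower in FMD, and none in FMD against IF (1 at an unadjusted p under 0.05). Acly, which makes cytosolic acetyl-CoA from citrate, fell by 1.24 in IF and by 1.16 in FMD, and Acss2, which makes it from acetate, fell by 1.26 and by 1.68. Crat, the carnitine acetyltransferase, rose by 2.79 and 2.83. After scaling 2 were called higher and 3 lower in IF, and 2 higher and 4 lower in FMD.

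Of the genes of 2-oxoglutarate supply and use, 11 of 21 were tested, with 1 higher in IF, 5 higher in FMD and none in FMD against IF (1 at an unadjusted p under 0.05). Gpt2 rose by 1.60 and 1.97, with FMD replicates at 503, 454 and 152 TPM. Ogdh, part of the enzyme complex that consumes 2-oxoglutarate, rose by 0.83 in FMD. After scaling 1 was called higher in each diet and Idh1 lower in FMD (-0.76), and Ogdh was not called (0.29). Of the sirtuin substrates, 7 of 22 were tested, with 2 higher and 2 lower under each diet and none called in FMD against IF (2 at an unadjusted p under 0.05). Acadl, a mitochondrial acyl-CoA dehydrogenase, rose by 1.34 and 1.86, and Crtc2 by 0.83 and 0.76. After scaling 1 was called higher and 2 lower under each diet, and Crtc2 was not called (0.57 and 0.25). Of the histone genes, 9 of 17 were tested. The libraries were made after oligo-dT enrichment, so these values cover histone RNA that carried a poly(A) tail. H1f2 was called higher in both diets (1.16 and 0.94), with FMD replicate 2 at 35.8 TPM inside the FED range, and H2ax in FMD against IF (0.63). After scaling none was called higher, and 1 was called lower in IF and 4 in FMD, among them Cenpa (-0.95).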
